A study of Homo sapiens with 10 samples.

Results

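The BCL2 family decides at the outer membrane of the mitochondrion whether a cell enters apoptosis, and 10 of its genes were followed here across 5 prostate cancer (PCa) cell lines. They were chosen by name, with no threshold on a measured value but with earlier results of these data known. They are 3 survival members (BCL2, BCL2L1 and MCL1), 2 effectors (BAX and BAK1) and 5 BH3-only members (BCL2L11, BID, BBC3, PMAIP1 and BAD). All 10 were found among the 60642 gene symbols of the expression table. Bulk RNA-seq profiles were available for LNCaP, DUCAP, VCAP, DU145 and PC3, with 2 biological repeats of each line and 10 samples in all. LNCaP came from a lymph node metastasis, DU145 from a brain metastasis and PC3 from a bone metastasis, and DUCAP and VCAP are sister lines from the dura and a vertebra of the same patient. No line was treated or genetically altered, and all were kept in phenol-red free RPMI with fetal bovine serum and collected while growing exponentially, so that the lines differ from each other in their origin and not in an applied condition.

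Survival members hold the effectors BAX and BAK1 in check by binding them, and BH3-only members bind in turn to the groove of the survival members or to the effectors themselves. When effectors are set free they assemble into pores in the outer membrane, cytochrome c leaves the mitochondrion, and caspases are activated. Many of these proteins are controlled by phosphorylation, cleavage and degradation as well as by transcription, MCL1 being a protein of very short life, so that transcript levels describe one layer of this control.

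Levels are given in TPM, the share of each gene's transcripts, corrected for transcript length, in a fixed total per sample. The 37 mitochondrial genes took 32.1 to 35.98% of this total in DUCAP and VCAP and 12.7 to 22.5% in the other lines, and the median difference of all tested genes on the log2(TPM + 1) scale against the mean of the other 4 lines was −0.54 in DUCAP, −0.36 in VCAP, 0.18 in LNCaP, 0.23 in DU145 and 0.26 in PC3. Differences of the BCL2 family are therefore given beside these medians. After rescaling without the mitochondrial genes, the medians were −0.43 in DUCAP, −0.19 in VCAP, 0.089 in LNCaP, 0.15 in DU145 and 0.086 in PC3. The part of the mitochondrial share was not tested beyond this rescaling. The 4 luminal markers KLK3, KLK2, TMPRSS2 and FOLH1 summed to 2758 to 8416 TPM in LNCaP, DUCAP and VCAP, to 24.6 to 63.9 TPM in PC3 and to at most 1.11 TPM in DU145. FOLH1 did not follow this order, with 1.77 and 1.99 TPM in DUCAP against 4.97 and 40.9 in PC3. KLK3 and KLK2 overlapped between PC3 (at most 0.77 TPM) and DU145 (at most 0.52). The sum in PC3 thus came almost wholly from FOLH1 and TMPRSS2 (18.9 and 22.7 TPM). ERG, the gene of the fusion known in VCAP and DUCAP, was above 100 TPM in these lines alone, and markers of leukocytes (PTPRC) and endothelium (PECAM1) stayed below 0.5 TPM. Of the fibroblast markers, DCN reached at most 0.79 TPM. COL1A1 was 31.5 and 38.0 TPM in PC3, 6.2 and 6.66 in LNCaP and at most 4.6 in the other lines. VIM, a mesenchymal marker, was 799 and 1201 TPM in DU145, 1097 and 1067 in PC3, 3.28 and 4.25 in LNCaP and 0 in DUCAP and VCAP. The epithelial markers EPCAM, KRT8, KRT18 and CDH1 were present in all lines, CDH1 being 3.78 and 9.74 TPM in PC3 and 46.3 to 375 elsewhere. The part of these markers in the results was not tested. The 2 repeats of a line differed in these 10 genes by a median factor of 1.13 to 1.25, and by at least 1.5-fold in 4 genes in DU145, 2 in VCAP, 2 in PC3, 1 in DUCAP and 0 in LNCaP. In bulk RNA, fewer expressing cells and less transcript per cell cannot be told apart. The labels call the repeats biological but do not say how they were grown, so p-values measure the spread between these samples.

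BCL2, the founding survival gene of the family and the target of venetoclax, was close to absent from all 5 lines. BCL2L1 and MCL1 made up nearly the whole of the summed transcripts of the survival members followed here. BCL2 was listed at 0.86 and 1.15 TPM in LNCaP, 0.58 and 0.54 in VCAP, 0.44 and 0.30 in PC3, 0.20 and 0.39 in DUCAP, and 0.16 and 0.24 in DU145. Both LNCaP repeats were above the other 8 samples, and LNCaP repeat 2 alone exceeded 1 TPM. BCL2 therefore failed the filter of at least 1 TPM in at least 2 samples, which the other 9 genes passed. Its mean of 0.486 TPM was lower than that of all but 3.29% of the 17520 genes that passed. A low place among them was likely beforehand, since BCL2 failed the filter that they passed. Without this filter (32724 genes), BCL2 was higher in LNCaP than in the mean of the other 4 lines by 0.57 on the log2(TPM + 1) scale (SE 0.09, adjusted p = 0.0024 from limma), a scale that understates the fold change of so low a gene. BCL2 made up 0.625% ± 0.140 of the summed survival transcripts in LNCaP and 0.0459% ± 0.0129 in DU145 (SD, n = 2). The gene spans 196745 bases on chromosome 18 of GRCh38.p14 (63123346 to 63320090).

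BCL2L1, whose main product BCL-XL guards the effectors, was the most variable of the survival genes. It was expressed at 344 and 294 TPM in PC3, 160 and 196 in DU145, 72.5 and 70.7 in LNCaP, 45.3 and 46.7 in VCAP, and 42.7 and 45.1 in DUCAP. The mean in PC3 was 7.27 times that in DUCAP, and no repeats of neighbouring lines overlapped. The steps from PC3 to DU145 (log2 difference 0.84, SE 0.14, adjusted p = 0.0013), from DU145 to LNCaP (1.296) and from LNCaP to VCAP (0.63) passed the test, whereas VCAP and DUCAP did not differ beyond the spread between repeats (0.07, 95% interval −0.25 to 0.38, adjusted p = 0.83, limma). The gene also gives rise to the shorter, death-promoting BCL-XS by splicing, and gene-level TPM do not separate the products (chromosome 20, 31664452 to 31723963).

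MCL1, the short-lived survival member, had another order of lines. Its level was 275 and 240 TPM in DU145, 131 and 147 in PC3, 90.1 and 86.9 in LNCaP, 60.5 and 67.8 in VCAP, and 45.8 and 50.4 in DUCAP. DU145 was highest, and the repeats of neighbouring lines did not overlap at any step. The first 3 steps passed the test (log2 differences of 0.88, 0.64 and 0.46, the last with adjusted p = 0.015), and the step from VCAP to DUCAP did not (0.41, 95% interval 0.11 to 0.71 before adjustment, adjusted p = 0.066, limma). MCL1 was the larger survival transcript in 4 lines, with an MCL1 to BCL2L1 ratio of 1.10 ± 0.0319 in DUCAP, 1.24 ± 0.00860 in LNCaP, 1.39 ± 0.0807 in VCAP and 1.47 ± 0.351 in DU145. In PC3 the ratio was 0.440 ± 0.0829 (SD, n = 2), and BCL2L1 made up 69.5% ± 3.99 of the survival transcripts. MCL1 lies on chromosome 1 (150574558 to 150579610).

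**Figure D1:**
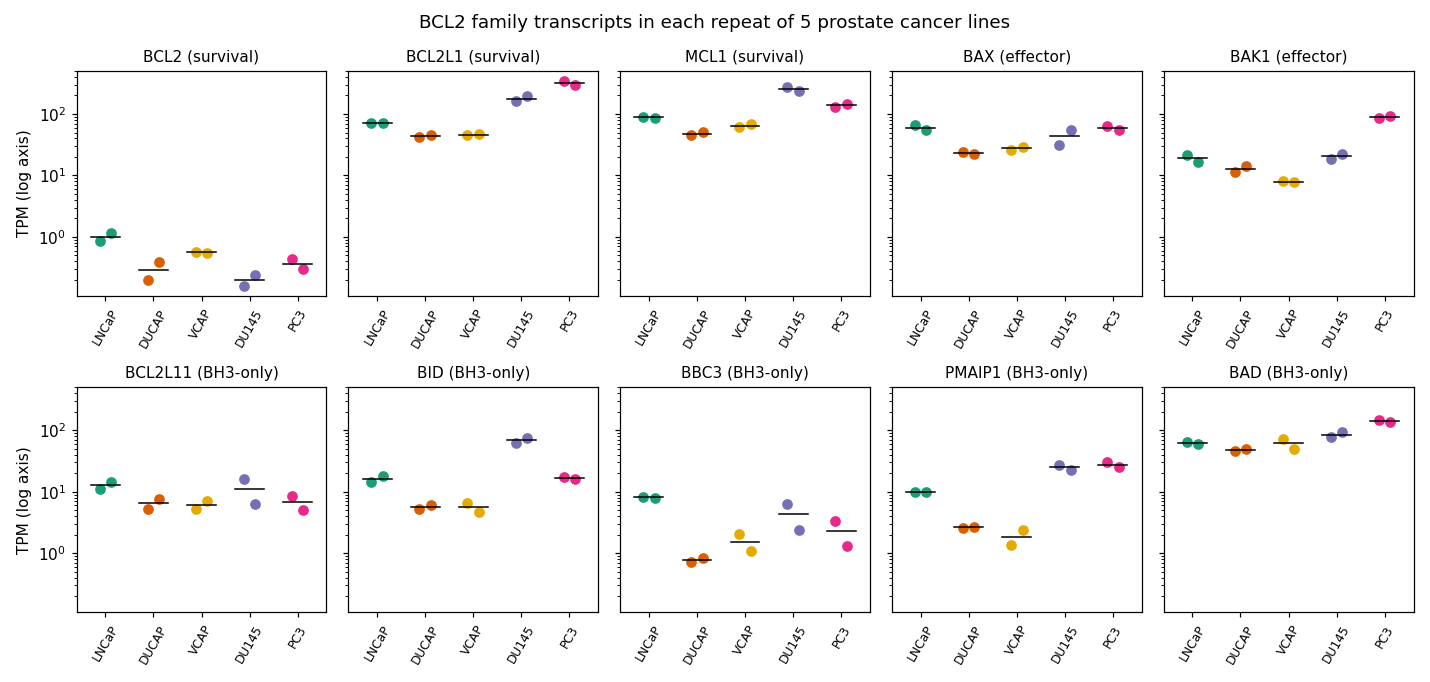
TPM on a log axis (vertical) of the 10 genes in the 5 lines (horizontal), with 1 panel per gene, 1 point per repeat and a bar at the mean of the 2 repeats. BCL2 lies near or below 1 TPM throughout, BAK1 stands out in PC3 at 87.2 and 94.2 TPM, and BID in DU145 at 61.5 and 75.7 TPM.

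The effectors behaved differently from each other. BAX, which moves from the cytosol to mitochondria when activated, was measured at 65.3 and 54.0 TPM in LNCaP, 63.0 and 55.0 in PC3, 31.9 and 54.3 in DU145, 26.3 and 29.3 in VCAP, and 23.7 and 22.3 in DUCAP (chromosome 19, 48954875 to 48961798). The range between line means was 2.60-fold, and the 2 DU145 repeats spanned most of the gap between the higher and the lower lines. None of the 4 steps between neighbouring lines passed the test, and 5 of the 10 pairs of lines did (limma). BAX was called in the test for any difference between lines (adjusted p = 0.0017) but no longer after median-ratio scaling (0.093) or quantile normalization (0.069).

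BAK1, the effector that resides in the mitochondrial membrane, was 87.2 and 94.2 TPM in PC3, 18.7 and 22.4 in DU145, 21.3 and 16.7 in LNCaP, 11.6 and 14.3 in DUCAP, and 8.02 and 7.79 in VCAP. Both PC3 repeats were far above all other samples, and both VCAP repeats below them. PC3 exceeded DU145 by 2.09 on the log2 scale (SE 0.17, adjusted p = 2.8e-05), and the mean in PC3 was 11.5 times that in VCAP. DU145 and LNCaP overlapped and did not differ beyond their spread (0.11, 95% interval −0.29 to 0.51), while LNCaP exceeded DUCAP by 0.52 (adjusted p = 0.028) and DUCAP exceeded VCAP by 0.64 (adjusted p = 0.037, limma). BAK1 was the only 1 of the 9 tested genes that differed between DUCAP and VCAP, where 4.24% of all tested genes were higher and 14% lower in DUCAP. It lies on chromosome 6 (33572552 to 33580276).

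The BH3-only genes differed most between lines in BID and PMAIP1. BID, which links death receptors to mitochondria after cleavage by caspase-8, was 61.5 and 75.7 TPM in DU145, 17.5 and 15.9 in PC3, 14.7 and 17.9 in LNCaP, 5.27 and 6.16 in DUCAP, and 6.58 and 4.73 in VCAP. This gave 3 levels, with DU145 above PC3 by 1.97 (SE 0.19, adjusted p = 7.6e-05), PC3 and LNCaP overlapping (0.04, 95% interval −0.40 to 0.49), LNCaP above DUCAP by 1.36 (adjusted p = 0.00041) and DUCAP and VCAP overlapping (0.02, −0.42 to 0.47). BID had the widest range of line means among the 10 genes, 3.39 on the log2(TPM + 1) scale, where the median tested gene had 1.69. The gene lies on chromosome 22 (17734138 to 17774665).

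PMAIP1 encodes NOXA, which binds MCL1 and promotes its degradation. It was 30.4 and 24.9 TPM in PC3, 27.5 and 22.2 in DU145, 10.0 and 9.81 in LNCaP, 2.59 and 2.69 in DUCAP, and 1.38 and 2.35 in VCAP. PC3 and DU145 overlapped (0.15, 95% interval −0.32 to 0.62), DU145 exceeded LNCaP by 1.24 (adjusted p = 0.0010) and LNCaP exceeded DUCAP by 1.58 (adjusted p = 0.00023, limma). The mean in PC3 was 14.8 times that in VCAP, the largest ratio among the 10 genes. MCL1 transcripts outnumbered those of PMAIP1 by a factor of 36.3 ± 10.6 in VCAP and 18.2 ± 0.744 in DUCAP, against 10.4 ± 0.553 in DU145, 8.93 ± 0.0888 in LNCaP and 5.11 ± 1.12 in PC3 (SD, n = 2). PMAIP1 lies on chromosome 18 (59899996 to 59904305).

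BBC3, the gene of PUMA, a potent binder of all survival proteins, was low everywhere and highest in LNCaP. Its level was 8.31 and 7.95 TPM in LNCaP, 6.29 and 2.40 in DU145, 3.36 and 1.31 in PC3, 2.02 and 1.07 in VCAP, and 0.73 and 0.85 in DUCAP. Both LNCaP repeats were above, and both DUCAP repeats below, all other samples, while the repeats of DU145 and PC3 differed by more than 2-fold. LNCaP exceeded the mean of the other 4 lines by 1.65 (SE 0.32, adjusted p = 0.0021, limma), yet no step between neighbouring lines passed, the first being 0.87 from LNCaP to DU145 (adjusted p = 0.097). Of the 10 pairs of lines 4 passed, and 7 did with the repeat number as a block or without DU145 repeat 2. BBC3 lies on chromosome 19 (47220824 to 47232860).

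BCL2L11, the gene of BIM, did not differ between the lines beyond the spread between repeats. It was 10.9 and 14.4 TPM in LNCaP, 16.0 and 6.21 in DU145, 8.57 and 5.09 in PC3, 5.29 and 7.63 in DUCAP, and 5.14 and 7.07 in VCAP, with neighbouring lines overlapping at each step. The adjusted p for any difference was 0.18, and 0 of the 10 pairs of lines were called (limma), with 1 at an unadjusted p under 0.05. DU145 repeat 1 was the highest of all samples, and DU145 repeat 2 was below both LNCaP repeats. Without DU145 repeat 2, 6 pairs were called and the adjusted p for any difference was 0.022, and without DU145 repeat 1, 3 pairs were called. The gene lies on chromosome 2 (111120914 to 111168445).

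BAD, a BH3-only protein that survival kinases silence by phosphorylation, was the most abundant death transcript in 9 of the 10 samples, BAX being ahead in LNCaP repeat 1. It was 144.6 and 136 TPM in PC3, 78.1 and 92.2 in DU145, 64.5 and 59.7 in LNCaP, 72.2 and 49.9 in VCAP, and 46.8 and 49.2 in DUCAP. PC3 was above all other samples and exceeded DU145 by 0.72 (SE 0.18, adjusted p = 0.011), while the 3 further steps did not pass (adjusted p of 0.065, 0.86 and 0.28, limma). BAD made up 54.1% ± 7.46 of the summed death transcripts in VCAP and 48.3% ± 0.730 in DUCAP, against 40.9% ± 0.108 in PC3 and 33.1% ± 0.0160 in LNCaP (SD, n = 2). It lies on chromosome 11 (64269828 to 64284704).

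Across the 9 tested genes, 8 differed between any of the lines (all but BCL2L11), where 90.8% of all tested genes did, so that being called does not set this family apart. Of all tested genes, 62.4% were called in LNCaP against the mean of the other 4 lines, 68.8% in DUCAP, 63.9% in VCAP, 63.1% in DU145 and 67.8% in PC3. In DUCAP, 8 of the 9 were lower than the mean of the other 4 lines (57.7% of all tested genes) and 0 higher (11.1%; also 0 at an unadjusted p under 0.05), with BCL2L11 at −0.36. After median-ratio scaling, which removes most of the shift of all genes, 5 were lower, namely BCL2L1, MCL1, BID, BBC3 and PMAIP1 (34.1% of all tested genes), and 0 were higher (25.8%). After quantile normalization the 5 genes were the same (30.7% lower), and 0 were higher (28.4%). In VCAP, 6 of the 9 were lower (46.6%) and 0 higher (17.3%; 0 unadjusted). After median-ratio scaling, 5 were lower, BCL2L1, MCL1, BAK1, BID and PMAIP1 (33.6%), and 0 were higher (27.2%), with 5 lower (32.9%) and 0 higher (28.7%) after quantile normalization. The median over the 9 genes was −1.28 in DUCAP and −0.79 in VCAP, below the medians of −0.54 and −0.36 over all genes. It was 0.56 in DU145, 0.71 in PC3 and 0.17 in LNCaP, against 0.23, 0.26 and 0.18 over all genes.

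In DU145, 4 of the 9 genes were higher than the mean of the other lines (40.7% of all tested genes), BID by 2.69 (SE 0.15), PMAIP1 by 1.78 (SE 0.16), MCL1 by 1.70 (SE 0.10) and BCL2L1 by 1.09 (SE 0.11), the largest adjusted p being 5.0e-05, and 0 were lower (22.3%; 0 unadjusted). BAX stood at 0.10 and BAK1 at −0.02 there, and BAX was at −0.22 after median-ratio scaling, while BAK1 was then called lower at −0.33 (adjusted p = 0.046, limma). With either scaling 4 genes were higher and 1 lower in DU145 (30.5 and 31.8% of all tested genes after median-ratio scaling, 28.3 and 35.2% after quantile normalization). In PC3, 6 were higher (43.2%), BAK1 by 2.60 (SE 0.14), BCL2L1 by 2.14 (SE 0.11), PMAIP1 by 1.96 (SE 0.16), BAD by 1.16 (SE 0.14), BAX by 0.71 (SE 0.19) and MCL1 by 0.59 (SE 0.10), and 0 were lower (24.7%; 0 unadjusted). After median-ratio scaling 4 were higher in PC3 (32.3%) and 0 lower (33.3%), and after quantile normalization also 4 (29.5%) and 0 (35.9%). With median-ratio scaling MCL1 (0.22) and BAX (0.34) were no longer called, nor were they after quantile normalization (0.065 and 0.26). In LNCaP, BBC3 (1.65) and BAX (0.73) were higher (38.2%) and BCL2L1 (−0.53) was lower (24.2%). After median-ratio scaling, BAX was no longer called in LNCaP (0.42, adjusted p = 0.075), and MCL1 (−0.52), BAK1 (−0.45) and BAD (−0.61) were called lower in addition to BCL2L1 (27.7% of all tested genes were then higher and 32.6% lower). After quantile normalization 2 were higher (29.9%) and 4 lower (31%). The 5 contrasts share samples, so their values stand side by side and are not independent.

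**Figure D2:**
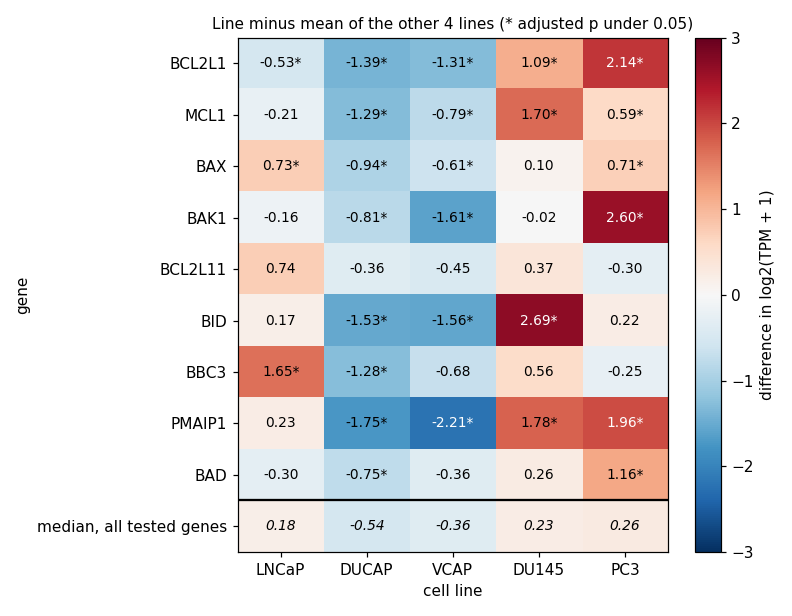
Difference in log2(TPM + 1) between each line and the mean of the other 4 lines (columns) for the 9 tested genes (rows), with colour and number giving the difference and an asterisk an adjusted p under 0.05 from limma; the lowest row gives the median of all tested genes. The asterisks in DUCAP and VCAP all stand on negative differences, where the median gene is at −0.54 and −0.36, and those in DU145 and PC3 on positive ones.

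For some of the 10 genes, both repeats of a line were separated from all 8 remaining samples. In LNCaP, 2 of the 10 genes, BCL2 and BBC3, were above these samples (19.6% of all tested genes, to which BCL2 does not belong). In DUCAP, 5 of the 10, BCL2L1, MCL1, BAX, BBC3 and BAD, were below them (19.1%), and in VCAP 2, BAK1 and PMAIP1 (8.44%). In DU145, 2 were above them, MCL1 and BID (16.4%), and in PC3 3, BCL2L1, BAK1 and BAD (21.4%). The counts in LNCaP, DU145 and PC3 were near the shares of all tested genes.

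The pairs of lines differed in how many genes of the family separated them. MCL1 and BID were higher in DU145 than in PC3 (23.8% of all tested genes), and BCL2L1, BAK1 and BAD lower (25.5%). LNCaP exceeded DUCAP in 7 genes (49.3%) and VCAP in 7 (43.2%), which were BCL2L1, MCL1, BAX, BAK1, BID, BBC3 and PMAIP1 in both cases, and was below either line in 0 (11.5 and 16.8%). LNCaP was below DU145 in 4 genes (29.1%) and above it in 0 (26.8%), and it was below PC3 in 5 (30.7%) and above it in BBC3 (27%). DUCAP was below DU145 in 8 (51.6%) and below PC3 in 7 (52%), with 0 above (14.9 and 15.8%). VCAP was below DU145 in 6 (46.4%) and below PC3 in 7 (47.7%), with 0 above (19 and 19.8%). In these pairs with 0 called in a direction, 0 were past an unadjusted p under 0.05 in that direction as well (limma).

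The balance of the family was described by the ratio of summed survival to summed death transcripts within a sample. This ratio does not change when all TPM of a sample are multiplied by a common factor. Quantile normalization is no such factor, and the ratio was not computed after it. Survival transcripts summed to 436 and 436 TPM in DU145, 476 and 442 in PC3, 163 and 159 in LNCaP, 106 and 115 in VCAP, and 88.7 and 95.9 in DUCAP. Death transcripts summed to 240 and 275 TPM in DU145, 355 and 332 in PC3, 195 and 180 in LNCaP, 122 and 102 in VCAP, and 95.9 and 103 in DUCAP. Both sums were thus higher in DU145 and PC3 than in any sample of the other lines.

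The ratio was 1.82 and 1.58 in DU145 and 1.34 and 1.33 in PC3, above all samples of the other lines. It was 0.875 and 1.13 in VCAP, 0.925 and 0.931 in DUCAP, and 0.838 and 0.880 in LNCaP. On the log2 scale this was 0.76 ± 0.14 in DU145, 0.42 ± 0.01 in PC3, −0.01 ± 0.26 in VCAP, −0.11 ± 0.01 in DUCAP and −0.22 ± 0.05 in LNCaP (SD, n = 2). The VCAP repeats fell on both sides of 0 and spanned the values of DUCAP and part of those of LNCaP, so that the order of these 3 lines is not resolved by the repeats. No p-value is given for a score over chosen genes.

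**Figure D3:**
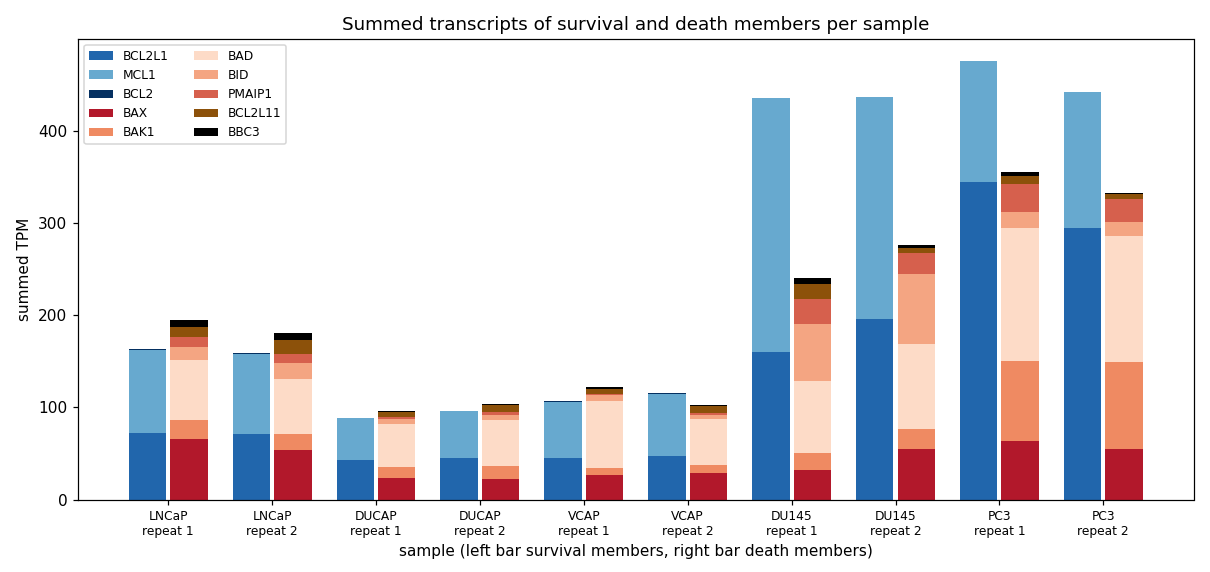
Summed TPM (vertical, from 0) of survival members (left bar, blue) and death members (right bar, other colours) in each of the 10 samples, with segments for the single genes. The left bar is the taller one in both repeats of DU145 and PC3 and, by less, in VCAP repeat 2 (115 against 102 TPM). Survival transcripts reach 436 to 476 TPM in DU145 and PC3, and the left bar consists mostly of BCL2L1 in PC3 alone.

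The balance moved with its definition, and the summed ratios rest on a few abundant genes. Against BAX and BAK1 alone, DU145 remained highest at 2.81 ± 0.42, VCAP (1.63 ± 0.000308) and PC3 (1.61 ± 0.07) followed, and DUCAP (1.36 ± 0.04) and LNCaP (1.04 ± 0.18) were lowest. Without MCL1, PC3 was highest at −0.11 ± 0.09, and DU145 was at −0.54 ± 0.07. With each gene weighted equally, the score was the difference between mean log2(TPM + 1) of survival and death members. VCAP was then highest at 0.89 ± 0.09, DUCAP (0.64 ± 0.01), PC3 (0.57 ± 0.17) and DU145 (0.56 ± 0.16) lay close together, and LNCaP was lowest at 0.17 ± 0.04 (SD, n = 2). Unlike the ratios, this score depends on the scaling of a sample through the added 1. BCL2, at 0.58 and 0.54 TPM in VCAP, counts in it as much as BCL2L1. LNCaP had the lowest mean under each of the 4 definitions, and its samples overlapped with one of VCAP under the summed ratio of all 10 genes and without MCL1.

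**Figure D4:**
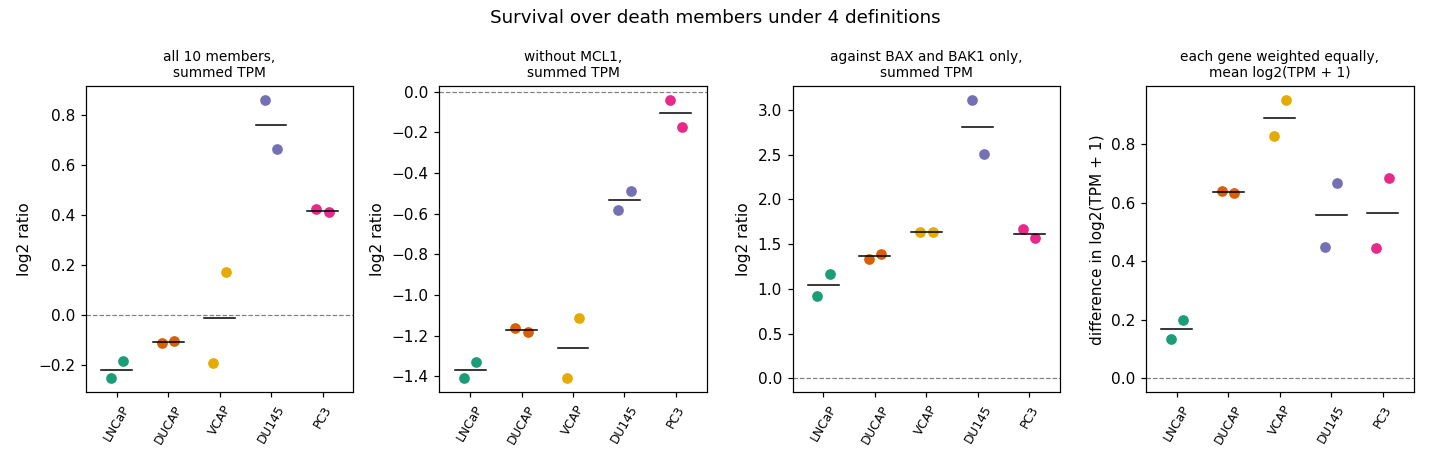
Survival over death members (vertical, log2 ratio or, in the last panel, difference in mean log2(TPM + 1)) in the 5 lines (horizontal) under 4 definitions, with 1 point per repeat, a bar at the mean and a dashed line at 0; the axes of the panels differ. DU145 is highest for all 10 genes (0.76) and against BAX and BAK1 only (2.81), PC3 without MCL1 (−0.11) and VCAP with equal weights (0.89), while LNCaP has the lowest mean in each.

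Single pairs of partners showed where the lines differed. BCL2L1 exceeded BAX 5.46- and 5.36-fold in PC3 and 5.03- and 3.61-fold in DU145, against 1.81 and 2.03 in DUCAP, 1.72 and 1.60 in VCAP and 1.11 and 1.31 in LNCaP. MCL1 exceeded BAK1 14.7- and 10.7-fold in DU145 and 7.55- and 8.70-fold in VCAP, and only 1.51- and 1.56-fold in PC3, with LNCaP (4.22 and 5.21) and DUCAP (3.96 and 3.54) in between. The BCL2L1 to BAD ratio was 2.38 and 2.16 in PC3 and 2.05 and 2.13 in DU145, against lower values in LNCaP (1.12 and 1.18), DUCAP (0.913 and 0.916) and VCAP (0.627 and 0.936). The BCL2 to BAX ratio did not exceed 0.0221 in any sample.

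Promoter sequences are shown for the member of each class that varied strongly, BCL2L1, BAK1 and PMAIP1, as the context of the transcripts whose levels differed; for BID the corresponding window overlaps the annotated span of the gene and is not shown. Each is the 250 bases before the start of the gene in RefSeq (GRCh38.p14), read 5′ to 3′ on the gene's strand, at chr20:31723964-31724213 (minus), chr6:33580277-33580526 (minus) and chr18:59899746-59899995 (plus). Capitals mark matches, on either strand, to 4 letter strings, the GC box GGGCGG, the CRE core TGACGT, the E-box CACGTG and the CCAAT box.
BCL2L1: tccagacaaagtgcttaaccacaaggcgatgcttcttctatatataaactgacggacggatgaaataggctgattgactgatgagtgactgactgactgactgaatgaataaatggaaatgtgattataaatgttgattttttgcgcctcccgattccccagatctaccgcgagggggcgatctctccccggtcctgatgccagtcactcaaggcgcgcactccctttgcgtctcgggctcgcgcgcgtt
BAK1: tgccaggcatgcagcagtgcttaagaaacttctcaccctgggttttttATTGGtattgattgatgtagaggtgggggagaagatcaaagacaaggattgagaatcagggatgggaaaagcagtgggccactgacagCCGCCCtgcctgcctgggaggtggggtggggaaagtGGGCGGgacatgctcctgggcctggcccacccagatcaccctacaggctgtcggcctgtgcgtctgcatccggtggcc
PMAIP1: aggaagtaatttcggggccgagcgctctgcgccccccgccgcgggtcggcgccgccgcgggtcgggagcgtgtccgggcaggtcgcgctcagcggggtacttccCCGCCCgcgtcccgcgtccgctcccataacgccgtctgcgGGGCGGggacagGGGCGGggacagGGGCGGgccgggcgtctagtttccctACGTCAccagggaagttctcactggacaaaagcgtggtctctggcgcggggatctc
The BCL2L1 window held none of the 4 strings, BAK1 held 2 GC boxes and 1 CCAAT box, and PMAIP1 held 4 GC boxes and 1 CRE core. Among 35097 promoters of the same length, 42.6% held a GC box, 7.10% a CRE core, 6.34% an E-box and 32.0% a CCAAT box, and among the 9 family members with a promoter entry the numbers were 6, 2, 2 and 5. BID, whose window overlaps its gene, is among the 6 with a GC box. BAX held 4 of the E-boxes and BBC3 1. The C and G content was 50% for BCL2L1, 58.0% for BAK1 and 72.8% for PMAIP1, with 17, 5 and 36 CG dinucleotides, where the median promoter had 11. A match describes letters in this window and no binding. RefSeq lists 11 transcripts for BCL2L1, 5 for BAK1 and 6 for PMAIP1, and which start these lines use was not examined.

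Another 12 genes of the extended BCL2 family were examined, of which 8 passed the filter and 7 differed between lines, near the 90.8% of all tested genes. BCL2L12, a related gene with an atypical BH domain, had the widest range, with 61.3 and 58.6 TPM in PC3, 27.8 and 48.7 in DU145, 24.3 and 17.2 in LNCaP, 1.75 and 2.58 in DUCAP, and 1.60 and 1.95 in VCAP (adjusted p = 3.3e-06, limma). BCL2A1, a survival member controlled by NF-kB, was present in DU145 (3.32 and 14.9 TPM) and PC3 (4.28 and 5.44) and at most at 0.07 TPM in the other lines. In both lines it stayed far below BCL2L1 and MCL1. BCL2L2, a further survival member left out of the survival sums, was 9.82 to 21.5 TPM over the samples, highest in LNCaP. BCL2L13, a mitochondrial member, was 105 and 119 TPM in DU145 and 21.9 to 59.8 in the other samples. BCL2L10, HRK, BCL2L14 and BCL2L15 did not pass the filter and reached at most 1.38 TPM. BMF, a BH3-only gene, was the tested gene of the 8 that did not differ (adjusted p = 0.58), and its DU145 repeats were 16.9 and 2.14 TPM.

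In a list of the apoptosome, caspases, their inhibitors, mitochondrial channels and nucleases, 21 of 21 genes differed between lines (90.8% of all tested genes). In DUCAP, 18 were lower and 0 higher than in the mean of the other lines, with a median of −0.68 against −0.54 for all genes, of which 57.7% were lower and 11.1% higher. In DU145, 10 were higher and 4 lower (40.7 and 22.3% of all tested genes), in PC3 11 and 2 (43.2 and 24.7%), in LNCaP 9 and 2 (38.2 and 24.2%), and in VCAP 2 and 7 (17.3 and 46.6%), so that several of these counts were near the shares of all genes. BIRC3, an inhibitor of apoptosis that NF-kB induces, was 17.8 and 20.7 TPM in DU145 and at most 4.11 elsewhere. VDAC2, a channel of the outer membrane that holds BAK1 in place there, was 518 and 459 TPM in PC3, 300 and 362 in DU145, 167 and 156 in LNCaP, 111 and 116 in DUCAP, and 74.9 and 96.0 in VCAP. ENDOG, a mitochondrial nuclease, was 29.8 and 27.3 TPM in LNCaP and 2.69 to 18.0 in the other samples.

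A list of 14 genes was taken from the death receptor pathway, which reaches mitochondria through BID. It holds receptors, decoy receptors, ligands, adaptors, caspases and an inhibitor, so its counts mix genes with opposite roles. Of these genes 13 were tested and 12 differed, near the 90.8% of all tested genes. DUCAP had 10 lower and 1 higher (57.7 and 11.1% of all tested genes), with a median of −1.35 against −0.54 over all genes. VCAP also had 10 lower and 1 higher (46.6 and 17.3%), with a median of −0.95 against −0.36. DU145 had 10 higher and 0 lower (40.7 and 22.3%), with 1.25 against 0.23, and LNCaP 8 higher and 2 lower (38.2 and 24.2%), with 0.57 against 0.18. PC3 had 6 higher and 2 lower (43.2 and 24.7%), and its median of 0.035 was below the 0.26 of all genes. TNFRSF1A, a receptor of tumour necrosis factor, was 286 and 206 TPM in DU145, 159 and 133 in PC3 and 70.4 and 72.0 in LNCaP, and it was listed at 0 in both DUCAP repeats and at 0 and 0.10 in VCAP. TNFRSF10D, a decoy receptor for TRAIL, was 27.0 to 37.0 TPM in LNCaP and DU145 and at most 0.03 elsewhere. FAS ran the other way, with 40.7 and 52.7 TPM in VCAP, 14.1 and 11.7 in DUCAP and 1.42 to 8.97 in the other lines.

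A list of 20 p53 targets, genes that p53 switches on after DNA damage and other stress, holds BAX, BBC3 and PMAIP1 and 2 of the death receptor genes. In LNCaP, 16 of its genes were higher and 1 lower. With BAX, BBC3 and PMAIP1 taken out, 14 of 17 genes were higher and 1 lower in LNCaP (38.2 and 24.2% of all tested genes), with a median difference of 1.45 against 0.18. In DUCAP 2 were higher and 14 lower (11.1 and 57.7%), and in VCAP 4 and 10 (17.3 and 46.6%). The counts were near the shares of all tested genes in PC3, with 8 and 5 (43.2 and 24.7%), and in DU145, with 8 and 3 (40.7 and 22.3%). CDKN1A, a cell cycle inhibitor, was 195 and 168 TPM in LNCaP and 2.98 to 43.6 in the other samples. GDF15, a stress cytokine, was 481 and 549 TPM in LNCaP, 337 and 144 in PC3 and 0.60 to 23.1 in the others, and PHLDA3 was 17.2 to 54.2 TPM in LNCaP, DU145 and PC3 and at most 0.29 in DUCAP and VCAP. Of the 3 family members on this list, BBC3 and BAX were higher in LNCaP and PMAIP1 stood at 0.23 (adjusted p = 0.25, limma).

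Of 7 genes that control the turnover of the MCL1 protein, 6 were tested and 5 differed (90.8% of all tested genes did), none by more than 1.49 between line means on the log2 scale. HUWE1, a ubiquitin ligase for MCL1, was 69.7 and 66.1 TPM in PC3 and 23.8 to 51.5 in the other samples. FBXW7, another ligase that marks MCL1, was 3.2 and 2.64 TPM in DU145 and 4.46 to 9.02 elsewhere. USP9X, which removes ubiquitin from MCL1, was 29.0 and 29.2 TPM in PC3 and 8.26 to 22.5 in the other samples.

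**Figure D5:**
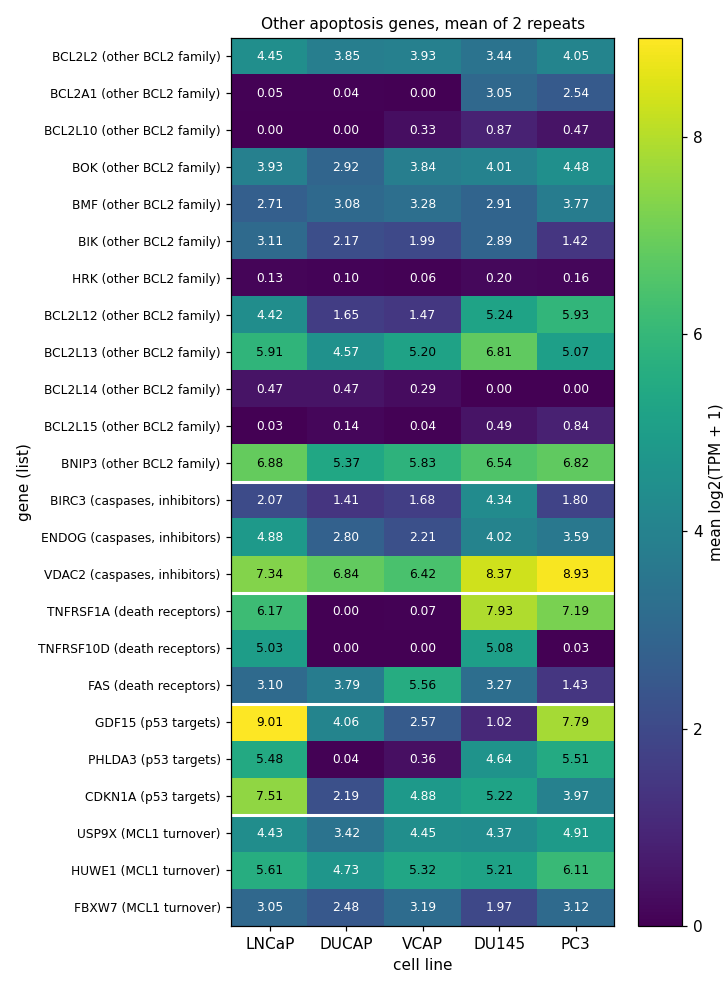
Mean log2(TPM + 1) of the 2 repeats (colour and number) in the 5 lines (columns) for the 12 other BCL2 family genes and for the 3 genes of each further list with the widest range among those called (rows). TNFRSF1A and PHLDA3 are near 0 in DUCAP and VCAP, and BCL2A1 is above 1 in DU145 and PC3 alone.

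For the 3 tested genes with the widest range of line means, the transcripts with the most similar pattern over the 10 samples were sought among 11476 tested genes that reached 10 TPM in a sample. They were CTDNEP1, OVCA2 and AL669918.1 for BID (Pearson's r of 0.996, 0.988 and 0.988), CCDC50, CSTF2T and F2RL1 for BAK1 (0.990, 0.990 and 0.989), and TAGLN2, RAB12 and AHDC1 for PMAIP1 (0.993, 0.993 and 0.992). F2RL1, a protease-activated receptor, averaged 115 TPM in PC3 and 8.41 to 19.9 in the other lines, and TAGLN2, an actin-binding protein, averaged 805 and 918 TPM in DU145 and PC3 and 8.67 to 112 in the others. These 10 points are 5 lines in 2 repeats each, and with so many genes and so few lines such values are a description only.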

How the data were processed

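Untreated cells of 5 PCa lines were profiled by bulk, polyA-enriched, strand-specific RNA-seq in 2 biological repeats each. Groups and repeat numbers were taken from the sample titles. The authors assessed reads with FastQC 0.11.9, trimmed them with Trim Galore 0.6.5, aligned them with STAR 2.7.2b to GRCh38 and quantified genes with RSEM 1.3.3, tool versions being those of the submitters' processing notes, and deposited the TPM of each sample without pooling repeats or stating a scaling between samples. TPM keep no depth, so no counting interval or detection floor was computed.

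TPM were transformed to log2(TPM + 1), a scale on which the change of low genes is understated. Of all symbols, 17520 reached 1 TPM in 2 or more samples. These were fitted with limma 3.58.1 (R 4.3.3) on the 10 samples together, each line having its own coefficient, with a trend in the prior variance. An F test for any difference, 5 contrasts of a line with the mean of the other 4, and 10 pairwise contrasts were made, each with Benjamini-Hochberg adjustment over all tested genes at 0.05. The fit was tested on simulated data. The members and lists were chosen with earlier results of these data known. Beside the 10 members, the genes named were, per list, the 3 called genes with the widest range of line means, and the 3 genes most correlated with each of the 3 members of widest range. BMF, BCL2L2 and the 4 family genes below the filter were named after their values had been seen. Coordinates and promoters are those of RefSeq (GRCh38.p14), where all 10 members matched a gene and 9 a promoter. As alternatives, the pseudocount was set to 0.1, the filter was dropped, TPM were rescaled (quantile, median-ratio, without mitochondrial genes), the variance trend was removed, repeat numbers entered as a block, and each sample was left out in turn. Python 3.11.15 with pandas 2.3.3, numpy 2.4.6 and matplotlib 3.10.9 was used.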

Additional observations from a re-analysis of the deposited data

How the results depend on the processing

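TPM are shares without depth, 2 repeats per line are few, and 4 of the 10 members differed by at least 1.5-fold between the DU145 repeats. Of 45 member contrasts of a line with the mean of the others, 27 were called, and none of these changed direction under any alternative run. Over 765 values, 19 calls were lost and 21 gained. Members called in LNCaP rose from 3 to 6 under quantile normalization, 5 under median-ratio scaling and 5 when rescaled without mitochondrial genes. Members called in DUCAP fell from 8 to 5 under quantile normalization and median-ratio scaling, and stayed at 8 when rescaled without mitochondrial genes. For BAX, 5 called pairs of lines became 2 under quantile normalization and 0 under median-ratio scaling. Both scalings shift all genes, the median in DUCAP going from −0.54 to −0.019 (quantile) and −0.11 (median-ratio), and no further cause was tested.

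Contrasts that were not called and changed sign, without a call on the other side, were (quantile first, median-ratio second) BID in LNCaP (−0.078, −0.11) and PC3 (−0.25, −0.11), BCL2L11 in DUCAP (0.31, 0.21), BAD in VCAP (0.090, 0.012) and DU145 (−0.053, −0.069) and BAX in DU145 (−0.26, −0.22, and −0.022 without mitochondrial genes), with PMAIP1 in LNCaP at −0.012 under median-ratio scaling. With 1 sample left out, its line then rests on a single sample assumed to vary like the others. The ranges that crossed 0 were −0.33 to 0.0092 for BAK1 in LNCaP, −0.27 to 0.48 for BAX in DU145, −0.14 to 0.10 for BAK1 in DU145 (positive without LNCaP repeat 1, 0.021, or DUCAP repeat 2, 0.013), −0.25 to 0.99 for BCL2L11 in DU145, −0.63 to 0.026 for BCL2L11 in PC3 and −0.71 to 0.21 for BBC3 in PC3. Called pairs ranged from 0 to 6 for BCL2L11 and from 4 to 7 for BBC3.

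When repeat numbers entered as a replicate block, 7 pairs were called for BBC3 in place of 4, BBC3 in VCAP was called (−0.68, adjusted p = 0.041 from limma), and no other call on a member against the other lines changed. Deviations of same-numbered repeats correlated with r between −0.191 and 0.249 over the 10 pairs of lines (mean 0.00922). No common pairing by number was thus seen over all tested genes together, which cannot exclude one in some lines or genes. The numbers used are the repeat numbers 1 and 2 of the titles, which also carry culture numbers that differ from them in DU145 (1 and 3) and PC3 (2 and 3). Pairing by culture number was not tested.

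The log2 balance was, without MCL1, −1.37 in LNCaP, −1.17 in DUCAP, −1.26 in VCAP, −0.54 in DU145 and −0.11 in PC3. Against BAX and BAK1 only it was 1.04, 1.36, 1.63, 2.81 and 1.61, and with equal weights 0.17, 0.64, 0.89, 0.56 and 0.57, in the same order. The sign in VCAP rested on 1 sample (−0.19 to 0.17).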
